A study of Mus musculus with 6 samples.

Results

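The genes described here are 8 mouse genes of cartilage, Col2a1, Col9a1, Acan, Matn1, Matn4, Sox5, Sox6 and Hapln1, chosen by name. Of the 8, 7 had values among the 14162 genes measured, and Acan, which encodes the core protein of the proteoglycan aggrecan, was not analysed here. RNA came from lung at stage E12.5. In 3 libraries, called Dnmt1KO, the labels give the genotype as ShhCre-Dnmt1KO, a loss of the maintenance DNA methyltransferase Dnmt1 driven by Cre recombinase from the Shh gene. The other 3 libraries, called WT, were from wild-type littermates, and the labels name no Cre for them. Shh, and with it this Cre, is active in the epithelium of the developing airways, and the other cells of the lung lie outside its lineage. No sorting is mentioned in the labels, nor whether trachea was taken along. They also leave unsaid if the libraries are of separate embryos, and p-values then measure only the spread between these libraries.

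Cartilage supports the trachea and main bronchi and forms from mesoderm, outside the epithelial lineage. Sox9, Sox5 and Sox6 are transcription factors that together switch on the genes of the cartilage matrix. In that matrix, fibrils of collagens II, IX and XI hold aggrecan, which link protein, the product of Hapln1, ties to hyaluronan. Matrilins are adaptor proteins that join the fibrils to other matrix molecules. In the mouse, the mesenchyme of the trachea begins to condense at about the stage sampled here.

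The recovered read totals were 18192629 to 21046831 in the Dnmt1KO libraries and 20599736 to 25597662 in the WT libraries. Dnmt1 itself had 8723, 8565 and 8388 reads in Dnmt1KO lungs and 13466, 10786 and 12602 in WT lungs, a log2 fold change of -0.31 ± 0.09 (SE) with a limma adjusted p of 0.507, which is not past the threshold of 0.05. The groups did not overlap. WT replicate 1 stood apart from the other WT libraries in a way that touches the cartilage genes, as its values below show. Of 12 defining cartilage markers, 8 had values, and Acan, Comp, Matn3 and Snorc were not analysed here. The markers of early cartilage were present in every library, with Sox9 at 1271 to 2760 reads and Col2a1 at 2119 to 5595. Of the later markers, Cnmd, which encodes the cartilage protein chondromodulin, was low at 16 to 59 reads, as was Matn1 at 0 to 42. The other matrix markers had more, with Col9a1 at 181 to 1324 reads, Col9a2 at 926 to 1852, Col9a3 at 298 to 1032 and Col11a2 at 367 to 754. Since Sox9 is also made by the distal lung epithelium and the tissue is named only as lung, the genes are called cartilage genes here and are not assigned to the trachea.

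None of the 7 measured cartilage genes differed between Dnmt1KO and WT lungs past the test over all genes (limma, adjusted p from 0.155 to 1). Across the whole table, 0.29% of genes passed, 0.282% as higher and 0.00706% as lower in Dnmt1KO, so 0 of 7 is near that background. At an unadjusted p under 0.05 there was 1 of the 7, Matn1, against 4.52% of all genes, and voom on the recovered reads likewise called 0 and had 1 at that unadjusted level. Fold changes of the 7 had a median of 0.042 on the log2 scale, with 4 positive and 3 negative, beside a median near 0 for all genes. Matn1 was also the 1 gene of the 7 whose groups did not overlap. Of all genes, 8.78% had groups that did not overlap, 4.79% with Dnmt1KO higher and 3.99% with Dnmt1KO lower. Matn1 had 3 WT reads of 81 in all, where the lowest total of any listed gene was 60. It was therefore listed only through its Dnmt1KO reads. In all 16 genes with 3 or fewer WT reads, the Dnmt1KO libraries lay wholly above. The unadjusted p and the non-overlap of Matn1 thus cannot be weighed against the shares of all genes. In these bulk samples, fewer cells of a type and less RNA per cell cannot be told apart.

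**Figure D1:**
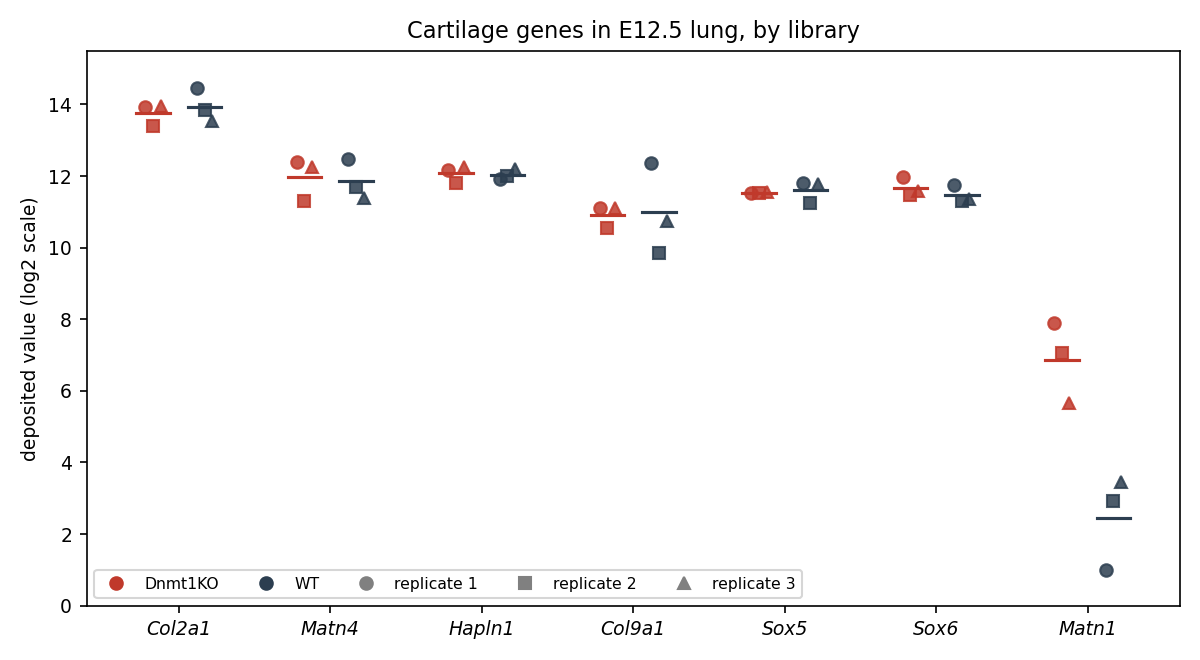
Deposited log2 values (vertical axis) of the 7 measured cartilage genes in each library, Dnmt1KO in red to the left of WT in dark blue, with 1 symbol per replicate and a line at each group's mean. The groups overlapped for 6 genes, and for Matn1 the Dnmt1KO values of 5.67 to 7.89 lay above the WT values of 1 to 3.46.

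Levels are compared between genes per kilobase of exon, after scaling the reads by the authors' own library constants. Col2a1, the chain of the main cartilage collagen, was the most abundant, at 576 ± 120 scaled reads per kilobase in Dnmt1KO lungs and 665 ± 222 in WT lungs (SD, n = 3 each, here and below). Matn4 followed at 376 ± 136 in Dnmt1KO and 344 ± 141 in WT, then Hapln1 at 159 ± 24.8 in Dnmt1KO and 153 ± 15.6 in WT. Col2a1 lay above Matn4 in 6 of 6 libraries, although the ranges of the 2 genes overlapped within each genotype, and Matn4 lay above Hapln1 with no overlap. Col9a1, at 99.7 ± 20.9 in Dnmt1KO and 134 ± 119 in WT, and Sox5, at 83.4 ± 0.623 in Dnmt1KO and 89.3 ± 17.9 in WT, were not separated, with Col9a1 the higher in 3 of 6 libraries. Sox6, at 73.5 ± 13.4 in Dnmt1KO and 64.0 ± 11.3 in WT, was below Sox5 in 5 of 6 libraries. Matn1 was lowest, at 14.4 ± 9.73 in Dnmt1KO and 0.481 ± 0.461 in WT, below Sox6 in all 6.

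Sox5 and Sox6 are close relatives in one subgroup of the Sox family; they bind DNA beside Sox9 and strengthen its action on cartilage genes. Sox5 had 528, 585 and 619 reads in Dnmt1KO lungs and 903, 484 and 790 in WT lungs. After scaling, the Dnmt1KO libraries were almost equal, at 615, 618 and 624, and lay inside the WT range of 510 to 753. Its log2 fold change was -0.077 ± 0.15 (SE), with a 95% interval of -0.42 to 0.26. Sox6, which also silences embryonic globin genes in red cells, had 713, 564 and 632 reads in Dnmt1KO lungs and 864, 498 and 601 in WT lungs. Dnmt1KO replicate 1 was its highest library after scaling and the groups overlapped. The log2 fold change of Sox6 was 0.20 ± 0.16, with an interval of -0.18 to 0.57. Sox9, the partner that cartilage cannot form without, was picked after its values were seen and had 1841, 1550 and 1558 reads in Dnmt1KO lungs against 2760, 1414 and 1271 in WT lungs (0.15 ± 0.24, adjusted p = 1).

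Col2a1 had 2804, 2119 and 3296 reads in Dnmt1KO lungs and 5595, 2891 and 2698 in WT lungs. The highest library was WT replicate 1 and the lowest Dnmt1KO replicate 2, and the groups overlapped. The log2 fold change was -0.18 ± 0.24, with an interval of -0.74 to 0.39, and it became 0.076 without WT replicate 1 and 0.008 without Dnmt1KO replicate 2. Col9a1 encodes 1 of the chains of collagen IX, which coats the collagen II fibril. It had 394, 294 and 455 reads in Dnmt1KO lungs and 1324, 181 and 386 in WT lungs, so WT held both the highest and the lowest library. The log2 fold change of -0.064 ± 0.62 had an interval of -1.56 to 1.43. It was 0.63 without WT replicate 1 and -0.63 without WT replicate 2, with adjusted p from 0.948 to 1 over all alternatives. Its residual SD of 0.94 on the log2 scale was larger than that of 98.1% of genes.

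The chains of collagen IX are assembled together, so their proportions were compared per kilobase in each library. Col9a1 stood at 0.271, 0.216 and 0.307 of the Col9a2 level in Dnmt1KO and at 0.509, 0.139 and 0.248 in WT. Col9a3 stood at 0.386, 0.362 and 0.595 of Col9a2 in Dnmt1KO and at 0.535, 0.309 and 0.354 in WT. WT replicate 1 had the highest Col9a1 share and WT replicate 2 the lowest, and for neither ratio did the genotypes separate.

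Hapln1, the link protein gene, had the smallest residual SD of the 7, at 0.196 on the log2 scale. It had 831, 706 and 1000 reads in Dnmt1KO lungs and 965, 806 and 1063 in WT lungs, and the groups overlapped. Its log2 fold change was 0.042 ± 0.13, with an interval of -0.27 to 0.35. Vcan, its neighbour on chromosome 13, encodes versican, a large proteoglycan that also binds hyaluronan, and stood at -0.11 ± 0.16 (adjusted p = 1). Matn4, a matrilin, had 969, 496 and 1008 reads in Dnmt1KO lungs and 1429, 652 and 613 in WT lungs. Each genotype held both high and low libraries, and the log2 fold change of 0.13 ± 0.36 had an interval of -0.73 to 0.99. In the RefSeq annotation of GRCm38, Matn4 overlaps Rbpjl, and whether reads were counted by strand is not given in the sources used here, so reads of the 2 genes may not be fully separated. Rbpjl had 258, 97 and 174 reads in Dnmt1KO lungs and 140, 142 and 99 in WT lungs.

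**Figure D2:**
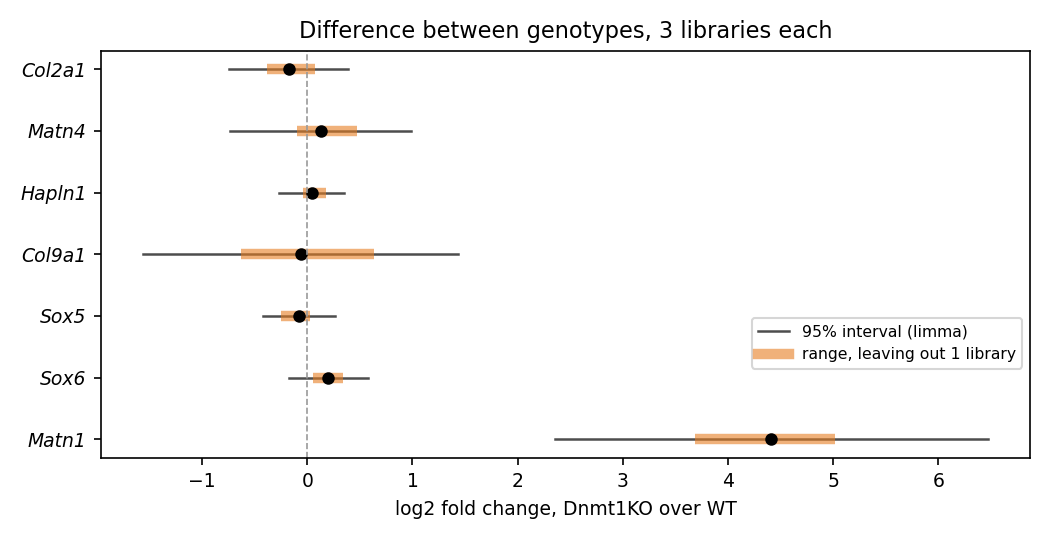
Log2 fold change of each measured cartilage gene (horizontal axis, Dnmt1KO over WT, 3 libraries each), with its 95% interval from limma as a thin line and the range as each library was left out as a thick bar. The intervals of 6 genes include 0, that of Col9a1 being the widest of the 6 at -1.56 to 1.43, and Matn1 stands at 4.41, with intervals that are not adjusted for the number of genes. That of Matn1 also does not allow for its listing through Dnmt1KO reads.

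Matn1 encodes matrilin 1, a cartilage matrix protein made by chondrocytes. It had 42, 26 and 10 reads in Dnmt1KO lungs and 0, 1 and 2 in WT lungs. All 3 Dnmt1KO libraries were above all 3 WT libraries, with replicate 1 the highest and replicate 3 the lowest of the Dnmt1KO libraries. The ratio of scaled reads was 30.1, from 78 reads in Dnmt1KO and 3 in WT, with an exact Clopper-Pearson 95% interval of 9.92 to 149 that covers counting error only. The fitted log2 fold change was 4.41 ± 0.90 (SE), with an interval of 2.36 to 6.47 before any adjustment for the number of genes. Neither interval allows for the listing of Matn1 through its Dnmt1KO reads, described in the next paragraph. Matn1 did not pass over all genes (limma, adjusted p = 0.155), nor under any alternative in which it was tested (0.0732 with sample weights to 0.861 with quantile normalization). The fitted value depended on the scaling and the offset, at 2.72 with quantile normalization, 3.30 with 2 reads added in place of 0.5, and 1.64 after scaling to total reads, where the offset added to the reads is larger. Leaving out each library gave 3.68 to 5.02.

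The deposited table bears on that value. The lowest total over the 6 libraries of any gene was 60 reads, and Matn1 had 81, all but 3 of them in Dnmt1KO. A gene with so few WT reads was therefore listed only where Dnmt1KO was high: 16 genes had 3 or fewer WT reads in all, and in all 16 the Dnmt1KO libraries lay wholly above. Of these, 13 passed the test as higher, and Matn1 was among those that did not. Across the table, 32 genes had a larger log2 fold change than Matn1. Set against Col2a1, Matn1 had 15.0, 12.3 and 3.03 reads per 1000 Col2a1 reads in Dnmt1KO and 0, 0.346 and 0.741 in WT. WT replicate 1, the library with the most Col2a1, had no Matn1 read, and a count of 0 allows a level of up to 3 reads.

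The other measured matrilins had overlapping groups. Matn2, which is made widely outside cartilage, had 352, 702 and 692 reads in Dnmt1KO lungs and 867, 385 and 501 in WT lungs, and its fold change was 0.217 ± 0.275 on the log2 scale (limma adjusted p = 1). Matn3 was not analysed here. The coding genes next to Matn1 on chromosome 4 in GRCm38 are Laptm5, at 289, 322 and 260 reads in Dnmt1KO lungs and 492, 397 and 269 in WT lungs, and Ptpru, with 538, 668 and 538 in Dnmt1KO and 1024, 582 and 594 in WT. Their log2 fold changes were -0.17 ± 0.22 for Laptm5 and -0.084 ± 0.17 for Ptpru, each with adjusted p = 1.

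**Figure D3:**
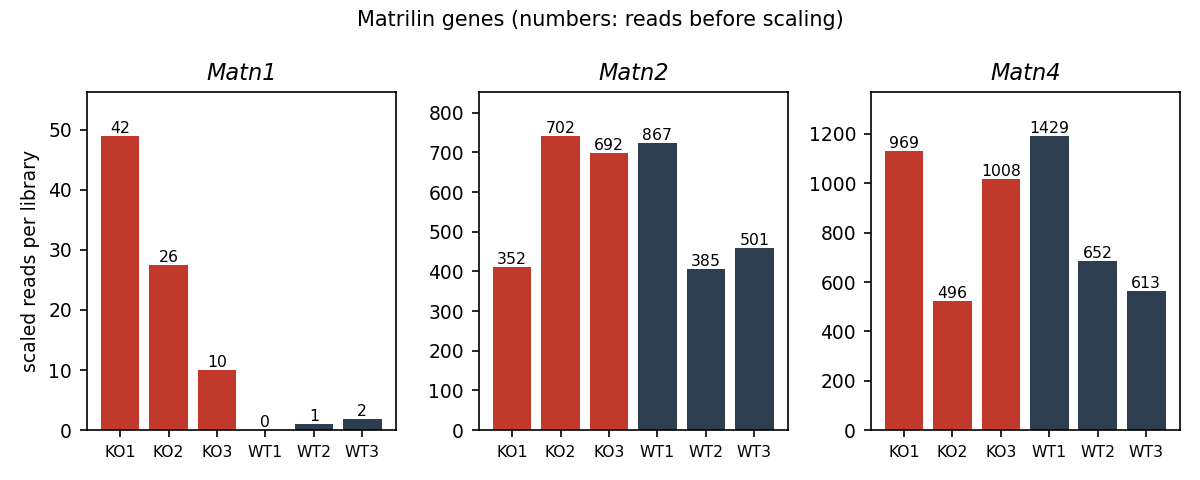
Scaled reads (vertical axis, from 0, with its own range in each panel) of the 3 measured matrilin genes in each library, Dnmt1KO (KO1 to KO3) in red and WT (WT1 to WT3) in dark blue, with reads before scaling above the bars. Matn1 had 42, 26 and 10 reads in Dnmt1KO lungs and 0, 1 and 2 in WT lungs, while the genotypes overlapped for Matn2 and Matn4.

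Dnmt1 copies methylation at CpG dinucleotides, so a start region of Matn1 is shown beside one of Matn4, the other matrilin among the 8 genes, from RefSeq on GRCm38.p6, 5′ to 3′ on the strand of the gene, from 250 bases before to 50 bases after the start, with each CpG in capitals. The Matn1 window is chr4:130944135-130944434 on the plus strand, and the Matn4 window shown, the first of 2 listed for that gene, is chr2:164405111-164405410 on the minus strand.
Matn1: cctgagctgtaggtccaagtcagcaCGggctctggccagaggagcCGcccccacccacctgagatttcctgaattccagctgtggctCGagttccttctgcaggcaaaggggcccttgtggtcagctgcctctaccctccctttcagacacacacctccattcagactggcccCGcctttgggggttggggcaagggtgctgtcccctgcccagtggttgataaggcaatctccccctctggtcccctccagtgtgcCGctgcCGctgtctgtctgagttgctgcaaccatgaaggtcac
Matn4: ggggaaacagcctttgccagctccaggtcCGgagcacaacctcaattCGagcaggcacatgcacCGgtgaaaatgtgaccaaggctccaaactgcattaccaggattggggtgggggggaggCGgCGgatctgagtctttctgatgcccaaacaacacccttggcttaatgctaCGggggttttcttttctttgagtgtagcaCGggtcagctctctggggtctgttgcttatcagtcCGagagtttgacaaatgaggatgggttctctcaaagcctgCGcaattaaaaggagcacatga
The Matn1 window holds 6 CpG and the first Matn4 window 9, while the second Matn4 window, chr2:164404769-164405068, holds 19. Among 32851 windows of this length the median was 7. Of these, 47.9% held no more CpG than the Matn1 window, 56.5% no more than the first Matn4 window and 73.5% no more than the second. None of the 3 windows holds the letters ACAAT or ATTGT, a form of the core recognised by Sox proteins, read on either strand. These letters occur in 31.0% of all windows. Other forms of the core were not searched, so these windows cannot be said to lack Sox sites. Windows were found for 7 of the 8 cartilage genes, with from 0 CpG in the first window of Col9a1 to 31 in that of Acan. Methylation was not measured in these samples.

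WT replicate 1 stood apart from the other WT libraries for Col2a1, the collagen IX genes, Matn4 and Sox9, and less so for other cartilage collagens. For Col11a1, Col11a2 and Col27a1 it lay 0.315, 0.255 and 0.166 above their mean on the log2 scale. It lay above the mean of the other WT libraries by 2.08 on the log2 scale for Col9a1, 0.94 for Matn4, 0.76 for Col2a1, 0.42 for Sox6 and 0.31 for Sox5, and it differed from that mean by -0.18 for Hapln1 and by -2.19 for Matn1, which had 0, 1 and 2 reads in the WT libraries. It was the highest of the 6 libraries for 4 of the 7 cartilage genes, against 20.3% of all genes. Over the 8 measured cartilage markers the median difference was 0.783, with Sox9 at 0.803 and Cnmd, which had few reads, at 1.214. Over the 19 other measured genes of cartilage matrix the median was 0.632, and 7 of them were highest in WT replicate 1. The glia and neural crest markers were highest in it for 8 of 8. Their summed scaled reads were 2238 to 2772 in Dnmt1KO, and 3940, 1804 and 2145 in WT replicates 1, 2 and 3, with Sox10 at 110, 542 and 170 reads in Dnmt1KO lungs and 1037, 74 and 230 in WT lungs. Dnmt1KO replicate 2 had the second highest sum of these markers and the lowest Col2a1 and Matn4 of all libraries. The summed mesenchyme and fibroblast markers ran from 102800 to 132100 in Dnmt1KO, against 125500, 104300 and 101300 in WT replicates 1, 2 and 3. Within that list, WT replicate 1 lay above the mean of the other WT libraries by 2.46 on the log2 scale for Twist1, 2.03 for Postn and 1.67 for Prrx1, which were picked after their values were seen. The list was mixed, with Wnt2 at -0.62, Tbx4 at -0.21 and Lum at -0.19. Over its 10 markers the median difference was 0.319, and 1 of them was highest in WT replicate 1. The heart muscle markers summed to 519.6 to 7209 in Dnmt1KO and to 1233, 687.1 and 697.7 in WT replicates 1, 2 and 3, and those of red cells to 39780 to 66660 in Dnmt1KO and to 29450, 41020 and 40240 in WT. By these sums, WT replicate 1 was the highest WT library for mesenchyme and heart muscle markers and the lowest for those of red cells. The most abundant markers largely set the sums. In WT replicate 1, Col1a1, Col1a2 and Col3a1 had 37880, 33330 and 41920 scaled reads of the 125500 for mesenchyme and fibroblasts. Hbb-y had 14380 of the 29450 for red cells. The part of these cell types in the cartilage values was not tested. Without WT replicate 1, the 7 had a median of 0.338 on the log2 scale in place of 0.042, Matn4 stood at 0.44 in place of 0.13, and 0 of the 7 passed.

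**Figure D4:**
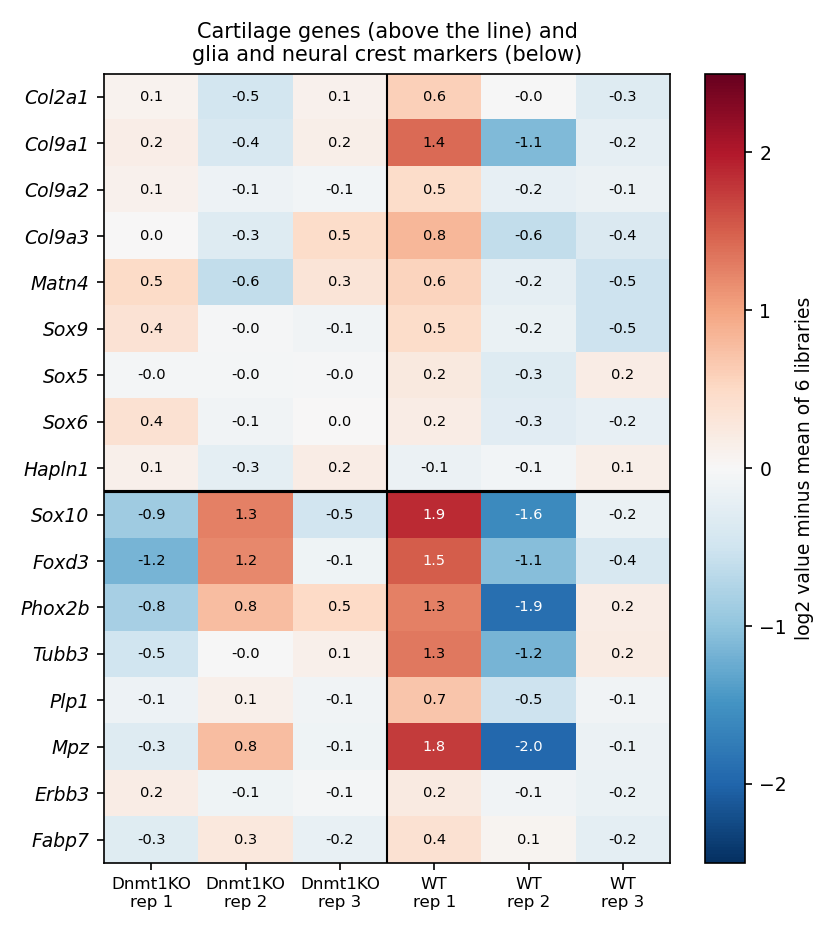
Log2 value of each gene minus its mean over the 6 libraries (colour and printed numbers), Dnmt1KO columns left of WT, for 9 cartilage genes above the line and 8 glia and neural crest markers below it. The cartilage genes shown are a selection. Among those left out, Matn1 was lowest in WT replicate 1, Col11a2 and Cnmd were highest in a Dnmt1KO library, and Col11a1 was highest in WT replicate 1. WT replicate 1 is the highest library for Col2a1, Col9a1, Col9a2, Col9a3, Matn4, Sox9 and Sox5 and for all 8 markers, but not for Sox6 or Hapln1. Dnmt1KO replicate 2 is high for Sox10 and Foxd3 and low for Col2a1 and Matn4.

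The other genes of cartilage matrix also gave no call. Of 25 listed, 19 were measured, and 0 passed limma's test over all genes in either direction. At an unadjusted p under 0.05 there was 1 by limma and by voom, beside 4.52% of all genes by limma. Their fold changes had a median of 0.095 on the log2 scale, with 12 positive. Cnmd had 49, 38 and 59 reads in Dnmt1KO lungs and 46, 16 and 17 in WT lungs, and its groups did not overlap after scaling (1.23 ± 0.40, adjusted p = 0.685). Cilp2 (0.425 ± 0.225) and the fibrillar collagen gene Col27a1 (-0.195 ± 0.098) had the next smallest p, each with adjusted p = 1, and Vcan had the highest level. Cnmd and Cilp2 were the 2 of the 19 whose groups did not overlap, where 8.78% of all genes had such groups. Collagen XI, the third collagen of the fibril, had Col11a1 at -0.067 ± 0.12 and Col11a2 at 0.017 ± 0.22.

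Of 36 regulators of cartilage formation, 33 were measured and 0 passed, with a median of 0.019. At an unadjusted p under 0.05 there were 2 by limma and by voom, beside 4.52% of all genes by limma. Fgfr3, an FGF receptor that restrains chondrocyte growth and is also present in lung epithelium, had 646, 609 and 841 reads in Dnmt1KO lungs and 1370, 1018 and 1155 in WT lungs. Its groups did not overlap, with Dnmt1KO lower (-0.55 ± 0.11, limma adjusted p = 0.156). Bmp4, a growth factor needed for tracheal cartilage in the mouse and also made by the distal lung tips, stood at 0.34 ± 0.12 (adjusted p = 0.85). Fgfr3 and Bmp4, the latter with Dnmt1KO higher, were the 2 of the 33 with no overlap, beside 8.78% of all genes. Notum, an enzyme that inactivates Wnt ligands and acts in tracheal mesenchyme of the mouse, stood at -0.435 ± 0.194 (adjusted p = 1). Tbx4, a T-box factor of lung and tracheal mesenchyme, had the highest level and stood at -0.091 ± 0.12.

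Enzymes and transporters that make the chondroitin sulfate chains of aggrecan were all measured, and 0 of 20 passed, with 0 at an unadjusted p under 0.05 by limma and by voom. The median was 0.007, and the list ran from -0.35 to 0.33. In 1 of the 20 the groups did not overlap, beside 8.78% of all genes. Xylt2, which attaches the first sugar, was at -0.152 ± 0.072, the sulfotransferase gene Chst11 at 0.195 ± 0.123, the sulfotransferase gene Ust at -0.14 ± 0.11 and Ugdh, which makes the sugar donor and had the highest level, at 0.028 ± 0.08. Of 14 genes of matrix turnover, 0 passed, with a median of 0.014. At an unadjusted p under 0.05 there was 1 of the 14 by limma and by voom, beside 4.52% of all genes by limma. The proteases Adamts20 (-0.28 ± 0.10, adjusted p = 0.817) and Mmp2 (0.008 ± 0.12), the hyaluronidase gene Hyal2 (-0.185 ± 0.084) and the protease inhibitor gene Timp1 (0.225 ± 0.134) are the ones the naming rule picks. Adamts20 and Hyal2 were the 2 of the 14 with no overlap, each with Dnmt1KO lower. Of all genes, 8.78% had no overlap, 3.99% with Dnmt1KO lower. Of 10 genes of late, hypertrophic cartilage and bone, 5 were measured and 0 passed. At an unadjusted p under 0.05 there was 1 by limma, beside 4.52% of all genes, and 0 by voom. Pth1r, the receptor for parathyroid hormone-related protein and also a gene of lung mesenchyme, had 2413, 2078 and 2924 reads in Dnmt1KO lungs and 3585, 3237 and 3532 in WT lungs (-0.29 ± 0.12, adjusted p = 1). Spp1 (0.77 ± 0.45) and Mef2c (0.15 ± 0.10) also did not pass. In 1 of these 5 the groups did not overlap, beside 8.78% of all genes.

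The genes whose pattern over the 6 libraries was most like that of Col2a1, among 7051 named genes above the median level, were Clptm1 (r = 0.964), Dxo (r = 0.963), Bcl2l12 (r = 0.929), Tmem259 (r = 0.929) and Trim26 (r = 0.916). These are Pearson's r over the same 6 libraries, picked as the highest of all, and serve as a description. From its highest to its lowest library, Clptm1 moved by 0.10 on the log2 scale and Bcl2l12 by 0.36, where Col2a1 moved by 1.06. Of the cartilage genes, Matn4 (r = 0.893) and Col9a1 (r = 0.742) were nearest to Col2a1, Hapln1 was at 0.061 and Matn1 at -0.511.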

How the data were processed

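RNA-seq values of 6 lung libraries were used, 3 Dnmt1KO and 3 WT, grouped by the titles. The authors deposited 1 log2 value per gene and library, per the file headers named only a signal. The submitters' processing notes name STAR, limma and mm9; the counter, annotation, filter and scaling method were not given in the sources used here. Raising 2 to a value gave whole reads plus 0.5, times a library constant, for 100% of values within 1e-06 reads; these reads give the depths, and intervals from them cover counting error only. Scaled reads are reads times that constant over the libraries' geometric mean.

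Symbols came from GENCODE M21 (GRCm38), for 13967 of 14162 identifiers, and exon lengths from its basic set. The log2 values were fitted with limma 3.58.1 (R 4.3.3), with genotype as the only term, with trend and robust moderation, and adjusted by Benjamini-Hochberg over all genes (threshold 0.05). The fit was tested on simulated data. Genes and lists were chosen with earlier results of these data known. Besides the members, the naming rule takes called genes of each list, otherwise the 3 smallest p and the highest level. Col11a1, Col11a2, Col9a2, Col9a3, Matn2, Sox9, Sox10 and the neighbours were named after their values were seen. Alternatives were a replicate block, a filter on low values, other scalings, offsets, moderation, sample weights, voom, and leaving out each library.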

Additional observations from a re-analysis of the deposited data

How the results depend on the processing

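In none of the 15 alternatives did any of the 7 measured cartilage genes pass the test. Matn1 had no value under the filter that drops the lowest 25% of genes, and its fold change was positive in the other 14, a direction that its listing through Dnmt1KO reads alone had fixed. Over all genes, 40 were called higher and 1 lower. With the replicate block these became 26 and 0, and same-numbered libraries deviated together with r of -0.003, -0.18 and 0.306, and not every library was nearest to its own number, so the numbers were not taken to pair the samples. With the low genes left out limma called 0 genes in either direction, with 308 of 10621 at an unadjusted p under 0.05, and the filter removes 37 of the 41 called genes. The calls of lower genes were 0 without trend and robust estimation and 12 with sample weights. As each library was left out, 15 to 42 were called higher and 0 to 17 lower.

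The sign of several small differences turned. With sample weights Hapln1 was at -0.104, Ugdh at -0.033 and Mmp2 at -0.088. Leaving out each library gave ranges of -0.381 to 0.076 for Col2a1, -0.634 to 0.631 for Col9a1, -0.101 to 0.472 for Matn4, -0.255 to 0.025 for Sox5, -0.041 to 0.177 for Hapln1, -0.293 to 0.021 for Vcan, -0.215 to 0.006 for Tbx4, -0.015 to 0.072 for Ugdh and -0.098 to 0.114 for Mmp2. The cause was not tested. In WT, Matn1 had 3 reads over the 3 libraries, and Col9a1, the next lowest of the 7, had 1891.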
